A study of Drosophila melanogaster with 3 samples.

Results

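The regions described here are ChIP-seq peaks whose summit lay 1 to 200 bp upstream of the nearest annotated transcription start site (TSS), on the promoter side of a single gene. They were taken from the peaks that passed the authors' irreproducible discovery rate (IDR) threshold. A peak was left out when its summit lay within 500 bp upstream of TSSs on both strands, that is, between divergent promoters. By this rule 450 of 3839 IDR peaks were members, or 11.7% (95% Wilson interval 10.7 to 12.8%, counting error only). The chromatin came from whole Drosophila melanogaster prepupae aged 24 hours, with both sexes pooled, from a transgenic line that stably expresses salr with GFP fused to its C terminus. The label gives salr as the antibody target, and the material is whole animals, so no cell type could be checked. The 3 libraries are biological replicates of a single group (libraries 1, 2 and 3), and the control that they share was not analysed here. The free-text description calls each library an input control, whereas the assay title calls it transcription factor ChIP-seq, and the libraries were grouped by the assay title.

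The gene salr encodes spalt-related, a zinc finger transcription factor, which with its paralog spalt major (salm) is known for patterning the wing and for roles in sensory organs, eye and flight muscle. The stretch just upstream of a TSS is where RNA polymerase II and the general transcription factors assemble, and in active fly genes it is usually low in nucleosomes. Fly promoters of broadly used genes often carry the DNA replication-related element (DRE), which the factor Dref binds, or core promoter motif 1, which M1BP binds. Regulated promoters more often carry GAGA elements, an initiator or a TATA box.

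The sequences of 9 of the 12 strongest members are shown in order of signal. Each is read on the strand of the gene on the dm6 build, from 50 bp before to 50 bp after the summit, cut at the TSS. Capitals mark words from a list of 16 promoter words. CGATA and AAATAT, which are in that list, and the words searched only at a fixed place near the TSS (the TATA box and both initiators) are left in lower case.
CG14100 (chr3L:19590567-19590667, minus strand): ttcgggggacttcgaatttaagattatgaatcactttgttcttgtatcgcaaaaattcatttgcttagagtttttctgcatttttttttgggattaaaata
Ugalt (chrX:2703853-2703935, minus strand): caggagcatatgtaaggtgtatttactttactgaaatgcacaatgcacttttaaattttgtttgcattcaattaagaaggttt
Trp1 (chr2L:10010181-10010281, plus strand): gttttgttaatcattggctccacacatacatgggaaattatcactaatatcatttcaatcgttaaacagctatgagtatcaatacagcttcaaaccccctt
CG18549 (chr3R:12449143-12449243, plus strand): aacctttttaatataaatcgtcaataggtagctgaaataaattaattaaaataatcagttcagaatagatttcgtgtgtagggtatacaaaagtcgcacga
Hsp27 (chr3L:9383870-9383970, plus strand): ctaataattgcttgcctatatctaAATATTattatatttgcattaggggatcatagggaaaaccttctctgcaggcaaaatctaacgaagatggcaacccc
lncRNA:CR31044 (chr3R:29214406-29214506, plus strand): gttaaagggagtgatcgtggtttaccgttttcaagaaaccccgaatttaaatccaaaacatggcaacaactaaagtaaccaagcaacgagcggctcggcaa
CG13921 (chr3L:1746744-1746844, plus strand): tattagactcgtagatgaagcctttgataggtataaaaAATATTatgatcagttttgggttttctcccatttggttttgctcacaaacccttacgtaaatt
CG31145 (chr3R:23669802-23669902, minus strand): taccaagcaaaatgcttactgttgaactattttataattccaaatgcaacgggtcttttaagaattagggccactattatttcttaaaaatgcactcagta
Hpf1 (chr3R:5791736-5791836, plus strand): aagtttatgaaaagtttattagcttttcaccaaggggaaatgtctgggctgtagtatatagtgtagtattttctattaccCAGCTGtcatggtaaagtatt
CG14100, Ugalt, Trp1, CG18549, lncRNA:CR31044 and CG31145 hold none of the words that are capitalised. Within 50 bp of the summit, GC content in these 9 members ran from 28.7% at CG18549 to 43.6% at lncRNA:CR31044. In the members left out it was 23.8% at mRpL41, 39.6% at Alg3 and 25.7% at Tina-1. Hsp27 and CG13921 hold AATATT, among the A/T-rich words that SALL4, a mammalian relative of spalt, binds. The next members are shown because they hold the other words. These are the GAGA element at nebu, the GATA word and the E-box of Myc and Max at CG45544, and the DRE word at RpS12. At lute the word of motif 1, read on the opposite strand, runs into the E-box of motif 5.
nebu (chr3L:12843223-12843323, minus strand): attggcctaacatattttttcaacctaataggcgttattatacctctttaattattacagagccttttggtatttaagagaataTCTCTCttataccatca
CG45544 (chr3R:29256293-29256393, plus strand): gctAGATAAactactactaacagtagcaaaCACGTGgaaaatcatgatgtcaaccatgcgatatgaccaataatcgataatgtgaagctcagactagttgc
RpS12 (chr3L:13023278-13023351, plus strand): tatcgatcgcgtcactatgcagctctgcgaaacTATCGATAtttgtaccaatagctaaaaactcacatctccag
lute (chr3R:17385788-17385888, plus strand): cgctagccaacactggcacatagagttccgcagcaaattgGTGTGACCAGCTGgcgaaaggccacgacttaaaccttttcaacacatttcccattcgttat
A word is a match of letters and does not show that its factor was bound.

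Signal is given as relative signal, the deposited signal of the peak divided by the median signal of the library's own list, for summits that matched within 100 bp. The strongest member lay at CG14100, a gene known only by its annotation number (FBgn0036889, chr3L:19590455-19590783), and its summit was 93 bp upstream. Its relative signal was 62.1, 42.7 and 70.5 in libraries 1, 2 and 3. Next came Ugalt, which encodes a UDP-galactose transporter (FBgn0024994, chrX:2703730-2704043, 33 bp upstream), with 41.2, 37.3 and 44.5 in libraries 1, 2 and 3. At mRpL41, a subunit of the mitochondrial ribosome (128 bp upstream), the values were 38.0, 22.0 and 37.4. These 3 peaks were above every other member in libraries 1 and 3.

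Of the 12 strongest members, 11 lay at the gene's first TSS. The exception was Trp1, which encodes a protein of the endoplasmic reticulum translocation machinery: its peak lay in an intron, 123 bp upstream of an internal TSS (chr2L:10010088-10010354), with 26.8, 24.1 and 26.2 in libraries 1, 2 and 3. Hsp27, a small heat shock protein gene (chr3L:9383762-9384074, 143 bp upstream), had 25.7, 18.7 and 29.2. CG18549 had 29.1, 22.3 and 26.2, and lncRNA:CR31044, a long non-coding RNA, had 21.0, 23.7 and 27.5. The 3 libraries lay close together at Trp1 and Ugalt and far apart at Alg3, which encodes a mannosyltransferase of N-glycan assembly. At Alg3 the values were 19.2, 8.02 and 26.0, so library 2 was lowest. The other 4 were CG13921, CG31145, Tina-1 and Hpf1, the last of which encodes a cofactor of histone ADP-ribosylation, and their mean relative signals ran from 15.6 ± 3.09 at Hpf1 to 22.2 ± 3.01 at CG13921 (SD, n = 3).

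**Figure D1:**
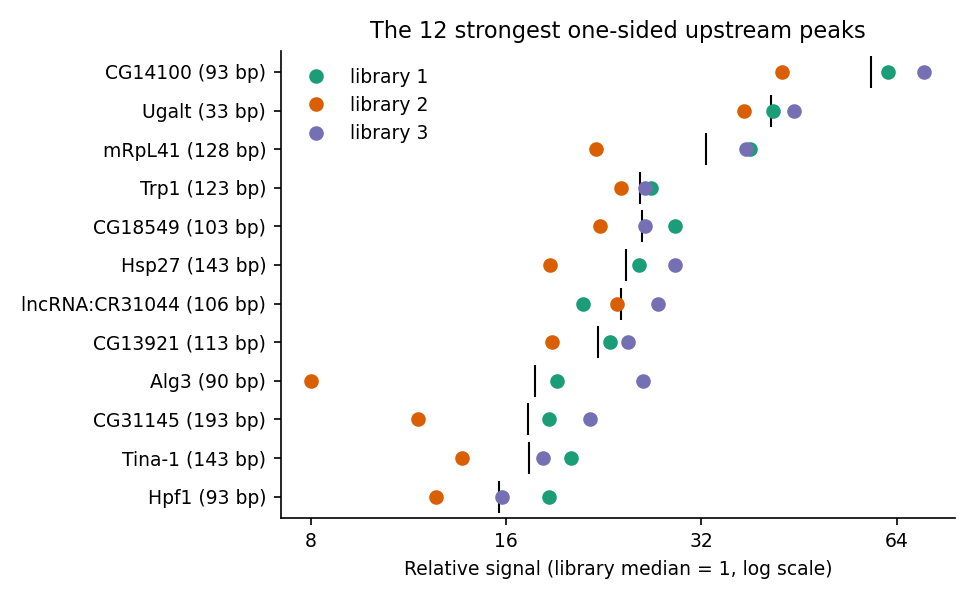
Relative signal (horizontal axis, log scale, library median = 1) of the 12 strongest members, with the summit's distance upstream of the TSS beside each gene name. Points are the 3 libraries and the black tick is their mean. Library 2 gave the lowest value at 11 of the 12, the exception being lncRNA:CR31044, and at Alg3 it stood at 8.02 against 19.2 and 26.0 in libraries 1 and 3.

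Members were spread over the whole 200 bp. The summit's distance to the TSS had quartiles of 60, 110 and 156 bp, and 197 members lay over 120 bp upstream, 93 lay 81 to 120 bp upstream and 160 lay 1 to 80 bp upstream. Peaks upstream of TSSs on both strands kept to a narrower range, with 230 of 339 within 41 to 140 bp of the TSS against 210 of 450 members. A summit between divergent TSSs can be no farther from the nearest than the gap between them allows. The rule itself thus limits that range. The limit of 200 bp cut through a continuous slope, with 46 members in the last 20 bp inside it (median pooled signal 286, the deposited value in the list from all 3 libraries) and 37 one-sided peaks in the next 20 bp (median 248). Just inside the limit were Eno, which encodes the glycolytic enzyme enolase (200 bp, relative signals 12.1, 9.03 and 13.4), AdamTS-B (200 bp), Dp, the partner of E2f factors (199 bp), and CG2258 (198 bp). Just outside were Pfrx and PAN3 at 202 bp and Ptpmeg2 and CG44569 at 203 bp. The salr gene itself had its nearest IDR summit 254 bp upstream of a TSS and salm had its nearest at 562 bp, so neither was a member.

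**Figure D2:**
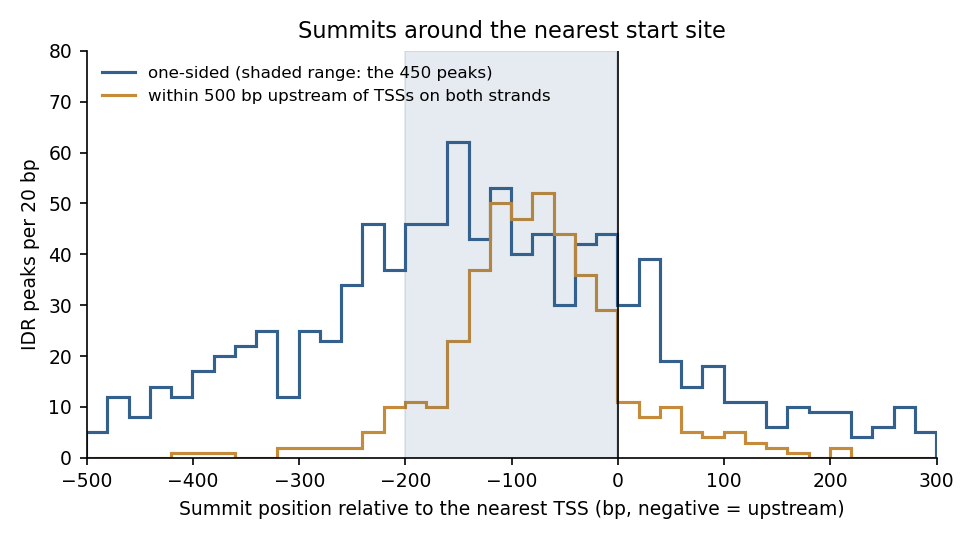
Number of IDR peaks per 20 bp (vertical axis) by summit position relative to the nearest TSS (horizontal axis, bp, negative is upstream). The blue line counts one-sided peaks, with the 450 members in the shaded range, and the orange line counts peaks within 500 bp upstream of TSSs on both strands. The blue line is highest at 141 to 160 bp upstream, with 62 peaks, and the orange line at 61 to 80 bp, with 52.

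Signal was higher in members farther from the TSS. In members over 120 bp upstream the median relative signal was 4.54, 3.72 and 5.85 in libraries 1, 2 and 3, against 3.54, 2.76 and 4.06 in members 1 to 80 bp upstream. The difference had the same sign in all 3 libraries and averaged 0.44 ± 0.08 on the log2 scale (SD, n = 3). An exact two-sided sign-flip permutation test over libraries gave p = 0.25, the smallest that 3 libraries allow. Without ribosomal protein genes, which sit close to the TSS, the mean difference was 0.64. The distance classes were chosen after the data were seen.

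**Figure D3:**
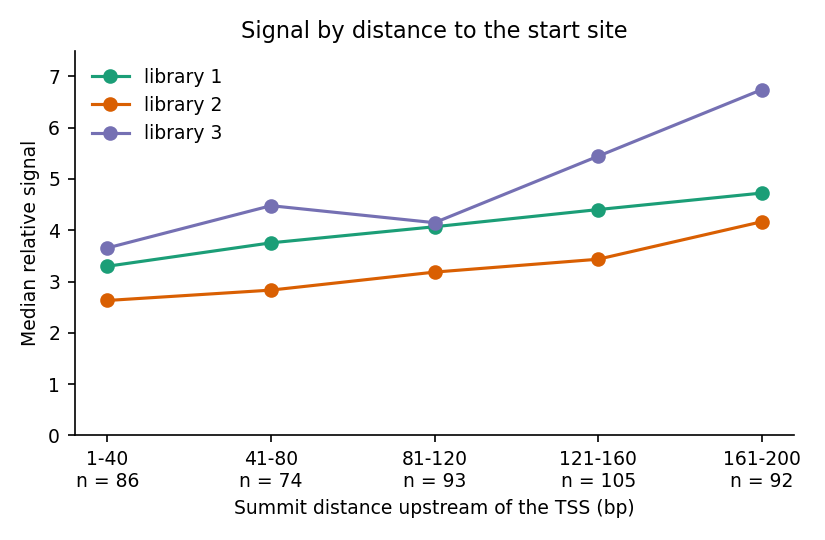
Median relative signal of members (vertical axis, library median = 1) by summit distance upstream of the TSS in 40 bp classes (horizontal axis, with the number of members in each). Each line is a library. In the nearest class the values were 3.30, 2.63 and 3.65 in libraries 1, 2 and 3, and in the farthest class they were 4.72, 4.17 and 6.74.

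Members did not differ in signal from other promoter peaks beyond the spread between libraries. Their median relative signal was 4.0, 3.17 and 4.72 in libraries 1, 2 and 3, against 3.85, 2.64 and 4.97 for peaks upstream on both strands and 3.84, 3.26 and 4.77 for promoter peaks farther upstream (over 200 and up to 1000 bp). The log2 difference was 0.08 ± 0.17 from peaks on both strands and 0.00 ± 0.05 from those 200 to 1000 bp upstream (SD, n = 3), with p = 0.75 and p = 1 in the exact sign-flip permutation test. Both differences were smaller than their spread between libraries. From peaks farther than 1000 bp from a TSS the difference was 0.25 ± 0.11, positive in all 3 libraries, with p = 0.25 in the same exact permutation test.

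One-sided upstream peaks made up a larger share of strong peaks than of weak ones. When the rule was applied anew to each library's strongest peaks, as many as there are IDR peaks, it kept 494, 489 and 405, or 12.9%, 12.7% and 10.5% in libraries 1, 2 and 3. Among as many of the weakest peaks it kept 3.65%, 3.36% and 2.71%. The difference was 8.81 ± 0.846 percentage points (SD, n = 3, p = 0.25 in the exact sign-flip permutation test). In the pooled list, which its label calls peaks and background, the share was 16.6% in the 500 strongest entries and 2.97% in the last 3000. These shares were not taken for other classes of peaks, so the difference cannot be called particular to one-sided upstream peaks.

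Most members were found in every library, at about the rate of all IDR peaks. Libraries 1, 2 and 3 listed a summit within 100 bp for 437, 426 and 401 members. These were 97.1%, 94.7% and 89.1% of members, against 96.5%, 92.4% and 92.3% of all IDR peaks. All 3 libraries listed 366 of 450 members (81.3%), against a background of 82.9% of all IDR peaks. Among each library's strongest peaks, 227 members (50.4%) were present in all 3, against a background of 48%. These shares are near their backgrounds. Peaks on both strands were listed in all 3 libraries in 72.9% of cases. Matched summits lay close together, at a median of 16, 14 and 10 bp from the member's summit.

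The 3 libraries differed in which members they missed. Of 13 members without a match in library 1, 12 had a summit closer than the median interval length of a peak, and of 24 in library 2, 17 had one. Of 49 in library 3, only 7 had one, and the median distance to the nearest summit was 3800 bp. The strongest of these was Gapdh2, which encodes a glycolytic dehydrogenase: its relative signals were 16.3 and 15.2 in libraries 1 and 2, and library 3 had its nearest summit 18827 bp away. CG7841 had 14.0 and 11.8 in libraries 1 and 2, and the promoter shared by Ip259 and the ribosomal protein gene RpS27A had 8.43 and 4.01, with no match in library 3 for either. Strong peaks of libraries 1 and 2 were thus absent from the list of library 3, and 12 of its 49 missing members had no summit within 10000 bp.

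Library 2 stood apart in signal. Across members matched in both, Spearman's correlation of relative signal was 0.801 between libraries 1 and 3 (n = 388), 0.638 between 1 and 2 (n = 414) and 0.569 between 2 and 3 (n = 378). These are descriptions over peaks that share a control. Library 2 was the lowest of the 3 at 249 of the 366 members found in all, and library 3 was the highest at 188. These counts were not taken for all IDR peaks. The median relative signal was lowest in library 2 and highest in library 3 in every other class of IDR peaks too. For peaks farther than 1000 bp from a TSS it was 3.11, 2.87 and 3.96. Among the 366 members the median ratio of the highest to the lowest library was 1.82, and the ratio was over 4 at 22 members. The largest ratio was at Glyp, which encodes glycogen phosphorylase, with 8.94, 1.16 and 9.87 in libraries 1, 2 and 3. It was followed by CG5805, with 7.97, 1.11 and 5.08, and by msi, which encodes the RNA-binding protein musashi, with 5.61, 1.86 and 12.8. Library 2 was the lowest at all 3 genes. The reverse order was seen at Eip93F, an ecdysone-induced transcription factor gene of metamorphosis, with 5.95, 13.4 and 5.72, so that library 2 was the highest there.

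Signal also went with base composition. The sequence within 50 bp of a member's summit held 39.6% G and C on average, and the mean fell with distance from the TSS, 46.8% at 1 to 40 bp and 34.2% beyond 160 bp. In the strongest 150 members, ranked by pooled signal, it was 34.4%, in the middle 150 it was 40.3% and in the weakest 150 it was 43.9%. The third of members with the lowest GC content at the summit (up to 33.7%) had a median relative signal of 5.82, 3.68 and 6.76 in libraries 1, 2 and 3, against 2.92, 3.11 and 3.24 in the third with the highest (from 45.5%). The log2 difference was 1.00, 0.24 and 1.06, with a mean of 0.77 ± 0.45 (SD, n = 3, p = 0.25 in the exact sign-flip permutation test). The order was thus the same in all 3 libraries, and the difference was smallest in library 2.

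The same order was seen within classes of distance in libraries 1 and 3. Within members over 120 bp upstream, Spearman's correlation of GC content with relative signal was -0.40, -0.04 and -0.38 in libraries 1, 2 and 3 (n = 191, 188 and 174). Within members 81 to 120 bp upstream it was -0.47, -0.16 and -0.49 (n = 90, 86 and 87), and within members 1 to 80 bp upstream it was -0.27, -0.02 and -0.26 (n = 156, 152 and 140). Low GC content went with higher signal at all 3 distances in libraries 1 and 3, and the correlations were weaker at each in library 2. These correlations run over peaks of the same libraries and describe them only, and the part of base composition in the signal was not tested.

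Base composition around the TSS also differed between classes of promoter. More than 120 and up to 200 bp upstream of the TSS, members held 34.7% G and C, against 29.6% for peaks on both strands and 38.5% for the 14366 one-sided promoters without an IDR summit within 1000 bp, called other promoters from here on. From 1 to 80 bp upstream, members held 47.5%, against 43.2% and 42.3%. In 20 bp steps over this window, members held 44.8% to 49.3% and promoter peaks 200 to 1000 bp upstream held 48.1% to 51.0%. High GC content near the TSS was thus not particular to members. Applied to each library's strongest peaks, members exceeded other promoters there by 4.83 ± 1.80 percentage points (SD, n = 3, p = 0.25 in the exact sign-flip permutation test). In the far window the 3 libraries did not share a sign, at 33.3%, 40.3% and 33.7% for members in libraries 1, 2 and 3, and library 2 alone was above other promoters (mean difference -2.74 ± 3.90 points, SD, n = 3, p = 0.5 in the same exact permutation test, and -4.99 points without library 2).

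**Figure D4:**
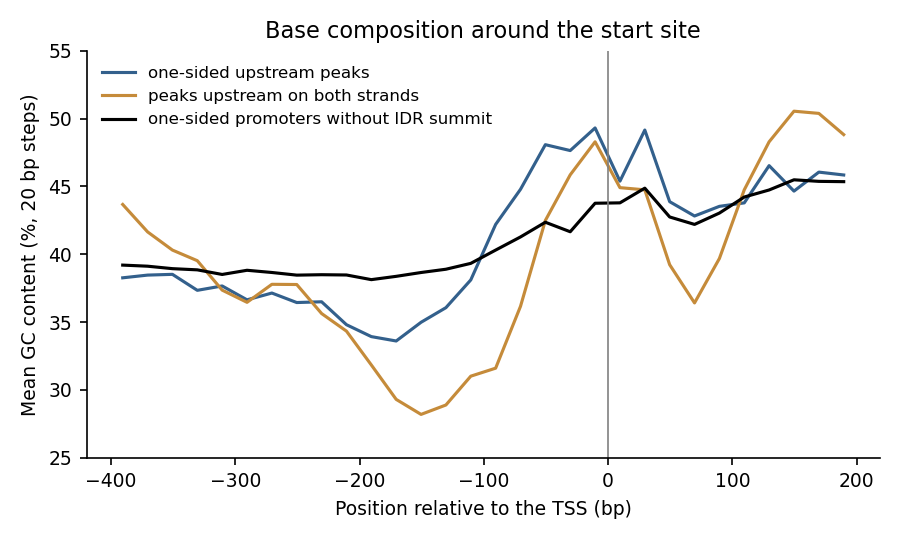
Mean GC content (vertical axis, %, in 20 bp steps) by position relative to the TSS (horizontal axis, bp) for members, for IDR peaks upstream on both strands and for other promoters. Members lie below other promoters beyond 120 bp upstream (34.7% against 38.5%) and above them at 1 to 80 bp upstream (47.5% against 42.3%), and peaks on both strands are lowest in the far window, at 29.6%.

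Words of both promoter kinds were found in members. They were searched in the 200 bp before the TSS on both strands, and members from each library's strongest peaks were set against other promoters. GAGAGA, the core of the GAGA element, was in 77 of the 450 IDR members (17.1%), against 4.13% of peaks on both strands and 11.0% of other promoters. By library, 12.3%, 26.0% and 15.3% of members held it in libraries 1, 2 and 3, against 4.47%, 4.88% and 4.32% of peaks on both strands. The difference was 13.3 ± 6.91 percentage points against peaks on both strands and 6.85 ± 7.17 against other promoters (SD, n = 3, p = 0.25 each in the exact sign-flip permutation test). It was positive in all 3 libraries and largest in library 2, without which the difference from other promoters was 2.80 points. At promoter peaks 200 to 1000 bp upstream the word was more frequent than in members in every library, at 30.4%, 32.5% and 27.5%.

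The DRE word TATCGATA was in 22 members (4.89%), against 11.8% of peaks on both strands and 3.18% of other promoters. By library the members' shares were 6.07%, 3.48% and 4.20%, against 9.93%, 11.2% and 10.3% for peaks on both strands, lower in all 3. GGTCACAC, the core of motif 1, was in 15 members (3.33%), against 7.08% of peaks on both strands and 1.41% of other promoters. CATCNCTA, the core of motif 7, was in 15 members too (3.33%), against 9.14% and 1.86%. The strongest member with TATCGATA was Alg3, and the strongest with GGTCACAC was the ribosomal protein gene RpL30, with relative signals of 6.65, 5.92 and 8.25 in libraries 1, 2 and 3. mRpL41 was the strongest with CATCNCTA. Members thus lay between the divergent promoters and other promoters for these 3 words. Of the 22 members with TATCGATA, 7 were at ribosomal protein genes. In the other 421 members its share was 3.56%, near that of other promoters. GGTCACAC and CATCNCTA were in 2.61% and 2.85% of those 421, above other promoters. Only 3 members held GAGAGA together with TATCGATA or GGTCACAC, while 77 held the first and 35 held either of the others, and 341 held none of them.

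Of words at fixed places on the sense strand, the TATA box was scarce and the initiator was not. TATAAA starting 20 to 40 bp upstream of the TSS was in 2.02%, 3.07% and 2.96% of members in libraries 1, 2 and 3, against 7.32% of other promoters, a difference of -4.63 ± 0.574 percentage points (SD, n = 3, p = 0.25 in the exact sign-flip permutation test). Peaks on both strands held TATAAA about as seldom as members, at 2.23%, 1.46% and 2.33%. Hsp27 was the strongest of the 12 IDR members that held it. The initiator TCAGT, starting within 5 bp of the TSS, was in 13.8%, 21.3% and 12.3% of members, against 4.47%, 7.80% and 3.65% of peaks on both strands and 11.8% of other promoters. Its difference from other promoters was 4.03 ± 4.79 percentage points (SD, n = 3), and 1.29 points without library 2. CTTTT at the same place, the form of initiator known from ribosomal protein genes, was in 3.85%, 2.86% and 4.44% of members, against 2.03% of other promoters. Peaks on both strands held CTTTT in 3.23%, 4.88% and 2.66%, a difference of 0.13 ± 1.95 percentage points (SD, n = 3). Each of these shares in members lay on the same side of other promoters in all 3 libraries.

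For the A/T-rich words, members did not differ from other promoters beyond the spread between libraries. AATATT was in 22.1%, 12.9% and 21.0% of members in libraries 1, 2 and 3, against 30.3%, 31.2% and 33.6% of peaks on both strands and 19.0% of other promoters. The difference from other promoters was -0.39 ± 5.02 percentage points (SD, n = 3, p = 1 in the exact sign-flip permutation test), and libraries 1 and 3 were above other promoters while library 2 was below. AAATAT, whose letters overlap AATATT, was in 39.8% of IDR members and 36.1% of other promoters. The longer word TTATGAAAT was in 2 members, one of them CG10602, and in 0.814% of other promoters. Around the summits, AATATT lay within 50 bp in 8.22% of members, against 11.8% of windows centred 150 bp farther upstream and 4.89% of those centred 150 bp downstream.

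The remaining words are given with the share of IDR members first. CAGCTG, the E-box of motif 5, was in 12.7% of IDR members against 9.77% of other promoters, GGCANCG, the core of motif 8, in 11.6% against 9.17%, and CACGTG, the E-box that Myc and Max bind, in 2.67% against 2.12%. CGATA, a short site of the insulator protein BEAF-32, which also lies inside TATCGATA, was in 34.4% against 29.8%. AGATAA, a word of GATA factors, was in 10.7% against 13.9%, and GTATATTT, the core of motif 6, in 2.67% against 2.87%. By library, the E-boxes and motif 8 were above other promoters in all 3 and the GATA word was below in all 3, each with p = 0.25 in the exact sign-flip permutation test. CGATA and motif 6 did not keep 1 sign. The strongest member with motif 6 was CG1142, with relative signals of 13.6, 7.73 and 14.1 in libraries 1, 2 and 3.

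**Figure D5:**
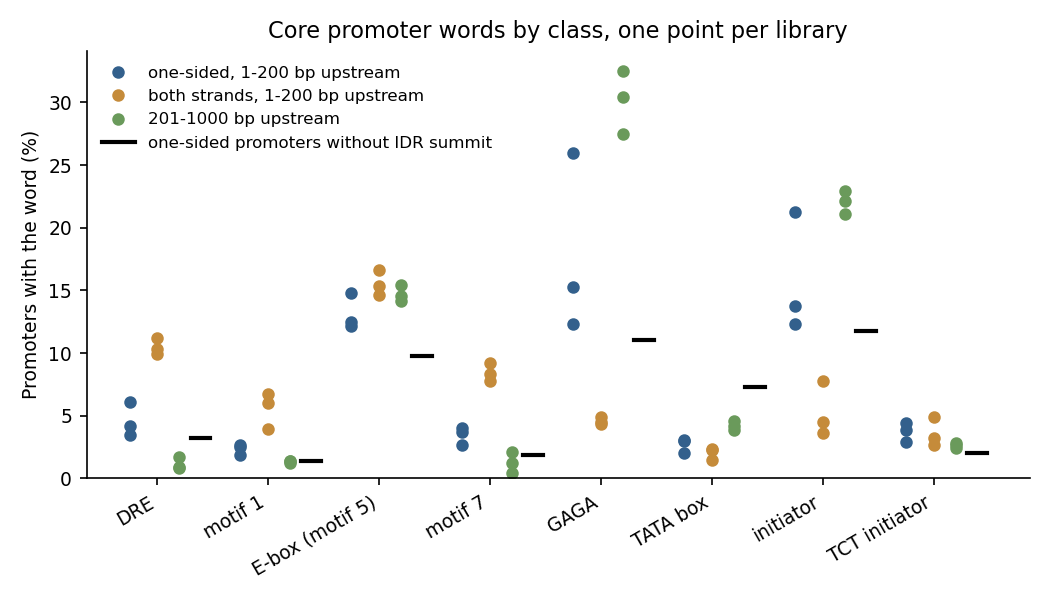
Share of promoters with a word (vertical axis, %) for 8 of the 16 words (horizontal axis, by name). Each point is a library's strongest peaks of a class, in blue for members, orange for peaks on both strands and green for promoter peaks 200 to 1000 bp upstream, and the black bar is the share of other promoters. GAGA in members, at 12.3% to 26.0%, lies between peaks on both strands (at most 4.88%) and those 200 to 1000 bp upstream (at least 27.5%).

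Members often used a TSS inside the gene. At 148 of 450 (32.9%, 95% Wilson interval 28.7 to 37.4%) the nearest TSS was not the first of its gene, against 13.3% for peaks on both strands and 22.0% for other promoters. By library, 28.1%, 39.9% and 28.6% of members lay at an internal TSS, which exceeded other promoters by 10.3 ± 6.64 percentage points (SD, n = 3, p = 0.25 in the exact sign-flip permutation test, positive in all 3). Without library 2 the excess was 6.44 points. An internal TSS is possible only at genes with several annotated TSSs. Such genes were more common, at 58.4% of members against 37.5% of peaks on both strands and 36.5% of other promoters. Within such genes, 148 of 263 members were at an internal TSS, against 3154 of 5239 other promoters and 45 of 127 peaks on both strands. The members' share there was thus no higher than that of other promoters. Peaks on both strands were sorted by a TSS on the opposite strand within 500 bp. That rule may itself affect their shares, and its part was not tested. The summit lay between genes in 245 members, in an intron in 137, in the 5 prime UTR of a transcript in 43, and in a coding exon in 0.

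Several regulatory genes were among the members with an internal TSS. In an intron of spi, which encodes the EGFR ligand spitz (chr2L:19575655-19575934, 157 bp upstream), relative signals were 10.2, 3.44 and 15.1 in libraries 1, 2 and 3. At gish, which encodes a casein kinase 1 of the gamma type, they were 18.0, 12.7 and 15.1, and its promoter was the strongest with GAGAGA. At numb, an inhibitor of Notch signalling, a summit was matched in library 3 only, with 7.32, and the nearest summits in libraries 1 and 2 lay 104 bp away. At shn, a zinc finger gene of the Dpp pathway, libraries 2 and 3 gave 7.26 and 2.41 and library 1 had no match. The values of the libraries were thus far apart at spi and shn and close together at gish, and numb has no spread to give.

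Most members were at protein-coding genes, and of the 24 gene lists the cytoplasmic ribosome had the largest share of genes with a member. Protein-coding genes held 415 members (92.2%), against 80.5% of other promoters, and non-coding RNAs held 33. Over the annotation, 451 of 18164 genes had a member, a background of 2.48%. Of 86 genes of the cytoplasmic ribosome, 29 had a member (33.7%) and 21 had a peak upstream on both strands. Of 53 translation factor genes 4 had one, of 32 chaperone genes 3, of 73 mitochondrial ribosomal protein genes 1 (mRpL41), and of 63 genes of Mediator and the RNA polymerase II machinery 2 (Polr2F and TfIIA-S). The counts were 0 of 48 proteasome genes, 0 of 35 aminoacyl-tRNA synthetase genes, 0 of 23 splicing genes, 0 of 17 insulator genes, 0 of 124 cuticle protein genes and 0 of 237 chemoreceptor genes.

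The ribosomal protein members lay close to the TSS. Their summits were 4 to 83 bp upstream, with a median of 24 bp, against 114 bp in other members. The strongest was RpS4 (chr3L:13041668-13041897, 9 bp upstream of an internal TSS), with relative signals of 10.2, 8.62 and 10.5 in libraries 1, 2 and 3, and RpL24 (chr2L:13395040-13395251, 5 bp upstream) had 10.3, 5.48 and 10.8. Over the list the median was 5.32, 2.99 and 5.08, against 3.79, 3.18 and 4.61 in other members. Libraries 1 and 3 were thus higher and library 2 lower, a mean log2 difference of 0.18 ± 0.29 (SD, n = 3, p = 0.5 in the exact sign-flip permutation test).

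Their promoters also held other words than those of other members. CTTTT at the TSS was in 7 of 29 ribosomal protein members, against 11 of 421 other members, and TATCGATA was in 7 of 29, against 15 of 421. CGATA was in 21 of 29, against 134 of 421. GAGAGA was in 0 of 29, against 77 of 421, and TCAGT in 0 of 29, against 68 of 421. Among 20 one-sided ribosomal protein promoters without an IDR summit, 2 held CTTTT, 2 held TATCGATA, 9 held CGATA and 0 held GAGAGA. These counts describe a list chosen with earlier results known, and no test was made on it.

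Other listed genes were mostly weaker than the leading members. The chaperone genes were Hsp27, Hsp83, with 9.54, 6.91 and 8.50 in libraries 1, 2 and 3, and Hsp26, with 5.56, 3.53 and 5.81. Of translation factor genes, eIF5B, which encodes an initiation factor, had 4.15, 3.89 and 7.05, and eEF1alpha1, which encodes the elongation factor that delivers tRNAs, had 5.01, 1.64 and 7.18. At eEF5, another translation factor gene, the values were 6.74, 3.16 and 5.44. Library 2 gave the lowest value at each of these chaperone and translation factor genes. Of non-coding RNA genes after lncRNA:CR31044, lncRNA:CR45808 had 13.0, 12.1 and 12.8 and lncRNA:CR44339 had 9.53, 9.66 and 15.6, and the only transfer RNA gene, tRNA:Gln-TTG-2-1, had 4.22, 3.30 and 7.11. Among subunits of the transcription machinery, Polr2F had 3.02, 1.86 and 4.88, and TfIIA-S had 0.975, 1.66 and 5.16. Of signalling and fate lists, the members were spi for EGFR, numb for Notch, shn for wing and vein patterning and Eip93F for ecdysone, 1 gene each of 19, 20, 28 and 25. For the cell cycle it was Dp (7.33, 4.80 and 7.12) and for the Polycomb group Su(z)2 (2.03, 2.40 and 1.43), 1 each of 24 and 19. Vesicle traffic had Rab7, 1 of 78, with no match in library 3, and oxidative phosphorylation had UQCR-11, a subunit of complex III, 1 of 87, with no match in library 2. With 1 gene a list these shares ran from 1.15% to 5.26%, on either side of the background of 2.48%.

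By chromosome arm, members made up 12.0% of IDR peaks on 2L, 13.2% on 2R, 9.98% on 3L, 12.0% on 3R and 11.6% on X. The only IDR peak on chromosome 4 was a member. At 61 members (13.6%) another IDR summit lay within 1000 bp of the same TSS, a share that was not taken for all IDR peaks.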

How the data were processed

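Tagged salr was profiled by ChIP-seq in 3 libraries of whole prepupae. Per the labels, the 3 libraries are biological replicates, and nothing pairs them with other groups. Per the notes deposited with the samples, the authors made dm6 peak lists for each library, for the pooled alignments and for IDR-thresholded peaks, all with the same control file. Which aligner and caller they used is not given in the sources used here. In each list the deposited signal is the authors' enrichment per peak, on a scale that is not stated, and it was used only within a list or as relative signal. The deposited −log10 q-value was not used. The deposited summit offset gave each summit. Depth is unknown without read counts, and intervals cover counting error of peaks only.

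Genes and TSSs came from Ensembl BDGP6.54, release 115, on 6 arms, without transposable elements (18164 genes, 23584 distinct TSSs by position and strand). Coordinates are dm6, 1-based. The sequence was Release 6 from RefSeq. Printed sequences come from windows that touch no exon. Computation used Python 3.11.15 with pandas 2.3.3, numpy 2.4.6, matplotlib 3.10.9 and scipy 1.17.1. Rule, matching, word search and the sign-flip test were first tested on simulated data. The library was the replicate in every mean ± SD. For 3 libraries the smallest two-sided p of the exact sign-flip permutation test is 0.25, so no result could pass 0.05. Tests were not adjusted for their number, since none could pass.

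The members, gene lists and words were chosen with earlier results of these data known. Named genes are the 12 strongest members, up to 3 of the strongest per list, the strongest with each word, the 4 nearest the limit on each side, the 3 most unequal between libraries, the 3 strongest unmatched in a library, and salr and salm; other names are examples chosen after their values were seen. Alternatives covered distances, matching, signal scales, promoter windows, reference promoters and leaving out each library.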

Additional observations from a re-analysis of the deposited data

How the results depend on the processing

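Of 175 alternative values for 42 results, 149 kept their sign or stayed close to the reported value. The number of members was 200 with a limit of 100 bp in place of 200. The share found in every library was 62.4% when summits had to lie within 50 bp, 88.2% within 200 bp and 88.9% with any overlap of intervals, and leaving out each library gave 84.0 to 92.0%. These shares were taken for members only, so no background of all IDR peaks stands beside them. The log2 signal difference from peaks on both strands was -0.00821 to 0.161 when each library was left out, and was negative without library 2. That from peaks over 200 and up to 1000 bp upstream was -0.0256 to 0.0233, negative without library 1, was -0.0211 with rank percentiles (in percentile points) and was -0.0177 with unmatched peaks given the lowest signal. GC content over the whole 200 bp, members minus other promoters, was 0.968 percentage points and ran from -0.692 to 2.02, negative without library 2. Among words, in percentage points, GTATATTT was 0.388 in 300 bp windows and ran from -0.678 to 0.125 (the highest without library 2), TTATGAAAT was 0.0568 in such windows and ran from -0.589 to 0.0175 (likewise), AATATT was 0.0572 with protein-coding TSSs and ran from -2.10 to 2.50 (likewise), GGCANCG was -1.14 in windows at the summit, and AAATAT ran from -0.880 (without library 3; -0.609 without library 1) to 7.05. The causes were not tested. The differences in GAGAGA, the TATA box and the initiator, strong against weak peaks, internal TSSs, distance and GC content at the summit kept their sign in all alternatives run. In each of these all 3 libraries shared a sign, so leaving out a library could not change it. For signal by GC content at the summit no other alternative was run. The GAGAGA difference from other promoters nevertheless fell from 6.85 to 0.967 percentage points in windows at the summit. No paired analysis was possible because there is only 1 group of samples.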

Other observations

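Genes of glycolysis were seen among the members, in a list drawn up after the values were known. Of 12 genes for the steps between glucose and pyruvate, 4 had a member, where the background over all genes is 2.48%, and the other 8 had no IDR peak within 1000 bp of a TSS that was nearest to them. All 4 summits lay in the far part of the range. Gapdh2 was 153 bp upstream, with relative signals of 16.3 and 15.2 in libraries 1 and 2 and no match in library 3. Eno was 200 bp upstream, with 12.1, 9.03 and 13.4. Hex-A, which encodes a hexokinase, was 159 bp upstream, with 11.8, 7.86 and 13.9, and Pgk, which encodes phosphoglycerate kinase, was 192 bp upstream, with 5.57, 4.11 and 7.29. At Eno, Hex-A and Pgk library 2 was the lowest.

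A few genes carried more than 1 member at different TSSs. Ptpmeg2, a tyrosine phosphatase gene, had 3, and CG2258, CG3625, PAN3, eIF4A and lola had 2 each. The gene lola encodes a family of transcription factors from alternative promoters, and eIF4A is the RNA helicase of translation initiation.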
